A study of Mus musculus with 8 samples.

Results

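The 8 genes described here encode receptors that steer T cells: the chemokine receptors Ccr2, Ccr8, Cxcr3, Cxcr4, Cxcr5 and Cx3cr1 and the sphingosine-1-phosphate (S1P) receptors S1pr4 and S1pr5. They were taken by name from a table of 20029 genes, and all 8 were present and above the filter on low values. RNA was measured in 8 libraries of CD8+ T cells sorted from MC38-OVA tumours, a mouse colon carcinoma line made to express the model antigen ovalbumin. Of these libraries, 4 came from Pglyrp1 knockout (KO) mice carrying the B6.129S4-Pglyrp1tm1.1Lky/J allele (libraries 1 to 4) and 4 from C57BL/6J wild-type (WT) mice (libraries 6 to 9). Pglyrp1 encodes a secreted protein that binds bacterial peptidoglycan. All mice received 500000 tumour cells under the skin of the right flank, and 1000 live CD45+ TCRβ+ CD8+ cells were sorted for each library. The sources used here do not give the mice's ages or say whether WT mice were littermates of KO mice. The KO allele is not restricted to T cells in the labels, so the tumour and its other cells also lay in a KO host.

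Chemokine receptors are G protein-coupled receptors that mostly act through inhibitory G proteins, and they turn a chemokine gradient into directed movement. CXCR3, the receptor for CXCL9 and CXCL10, marks effector T cells, and CCR2 binds CCL2 and related monocyte chemokines. CX3CR1 binds fractalkine and is known from effector T cells as well as from monocytes and macrophages. CCR8 binds CCL1 and is best known from tumour regulatory T cells, CXCR4 binds CXCL12, and CXCR5 binds CXCL13 and guides B cells and follicular T cells. S1P receptors read the high S1P level of blood and lymph. S1PR1 drives exit from lymph nodes, S1PR4 is found mainly on haematopoietic cells, and S1PR5 is known for the exit of natural killer cells from bone marrow and lymph nodes.

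S1pr4 and S1pr5 belong to one receptor family, and S1pr4 had the second highest and S1pr5 the lowest mean level of the 8, so the bases upstream of both are shown. The sequences run 5′ to 3′ on the gene's strand over the 250 bases before the start in RefSeq (build GRCm38.p6). Each lies outside the annotated exons of its own gene, and exons of other genes were not checked. The S1pr4 stretch is chr10:81500138-81500387 (minus strand) and the S1pr5 stretch is chr9:21248444-21248693 (minus strand).
S1pr4: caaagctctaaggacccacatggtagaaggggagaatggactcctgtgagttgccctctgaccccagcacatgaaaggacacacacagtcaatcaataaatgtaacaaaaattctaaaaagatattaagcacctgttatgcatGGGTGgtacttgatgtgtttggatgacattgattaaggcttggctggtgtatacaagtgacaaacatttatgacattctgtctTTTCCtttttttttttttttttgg
S1pr5: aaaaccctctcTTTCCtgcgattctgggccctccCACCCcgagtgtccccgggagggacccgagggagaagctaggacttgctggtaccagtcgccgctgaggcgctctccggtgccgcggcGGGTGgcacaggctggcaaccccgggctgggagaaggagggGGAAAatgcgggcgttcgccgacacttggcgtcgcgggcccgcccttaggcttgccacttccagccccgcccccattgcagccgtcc
Capitals mark matches to CACCC (the core of KLF sites) or GGAAA (NFAT and ETS-like sites) on either strand. S1pr4 held 1 and S1pr5 held 2 matches to CACCC, and S1pr4 held 1 and S1pr5 held 2 matches to GGAAA. Of 32851 promoter windows of this length, 52.0% held CACCC and 55.6% held GGAAA, so such matches are common. The letters AGGTGT (T-box factors, in 11.8% of windows) and TGTGGT (RUNX factors, in 14.0%) were in neither stretch. The S1pr5 stretch was 69.2% G or C with 22 CG pairs, and the S1pr4 stretch was 38.8% G or C with 0 CG pairs. The median over all windows was 52.4%, with quartiles of 45.2% and 61.2%. RefSeq windows were at hand for 7 of the 8 genes, all except Cxcr5.

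The targeted gene Pglyrp1 had a value of 0 in each of the 4 KO libraries, against 123 to 209.6 TPM across the WT ones (limma adjusted p = 2.93e-07). Sums of the deposited values ran from 2223162 to 3342847, and each library was brought to a sum of 1000000, called TPM here. All 9 T cell identity markers in the table were above 0 in every library, summing to 6005 to 6894 TPM in KO and 6217 to 8375 TPM in WT libraries. The list included Cd8a and Cd8b1. Libraries stood apart within both groups. Summed over 15 monocyte and macrophage markers other than Ly6c2, which CD8 T cells also express, KO libraries 1 to 4 had 164, 165, 2591 and 5316 TPM. WT libraries 6 to 9 had 27.2, 72.9, 65.6 and 139.6 TPM. Summed over 10 naive and memory T cell markers, KO libraries had 411 to 1431 TPM, while WT 6 and WT 9 had 2548 and 2295 TPM against 596 and 663 TPM in WT 7 and WT 8. For the 8 receptors, values without KO 3 and KO 4 or without WT 6 and WT 9 are given below where they differ from those over all libraries by more than 1.5 times or in sign. Where the libraries left out held the highest or lowest values of a gene in their group, the shift follows from that choice. In RNA from a sorted pool, fewer cells that express a gene and less RNA per cell cannot be told apart.

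Cxcr3 had the highest mean TPM of the 8 transcripts. The scaling of the deposited score is unknown, so comparing levels between genes assumes a correction for transcript length. Cxcr3 averaged 215 ± 51.2 TPM in KO and 233 ± 129 TPM in WT cells (SD, n = 4 each). S1pr4 and Ccr2 came next, with 128 ± 31.0 and 127 ± 35.6 TPM in KO and 164 ± 26.2 and 121 ± 106 TPM in WT cells. These 3 levels did not separate beyond the spread between libraries: Cxcr3 was the highest of the 8 in 5 of 8 libraries, S1pr4 in 2 and Ccr2 in 1. A gap followed. Ccr2 exceeded Cx3cr1 in all 8 libraries, by 2.29 ± 1.02 on the log2(TPM + 1) scale (SD over 8 libraries). Cx3cr1 and Ccr8 had nearly the same mean over the 8 libraries, 25.6 and 25.1 TPM, and each was the higher one in 4. Cxcr4 (11.9 TPM) and Cxcr5 (10.05 TPM) followed, with Cxcr4 higher in 5 of 8 libraries. S1pr5 was lowest at 4.11 TPM, yet it exceeded Cxcr5 in 3 of 8 libraries. Among the 10732 genes tested, mean levels ran from the 94.9th percentile for Cxcr3 to the 19.3rd for S1pr5.

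**Figure D1:**
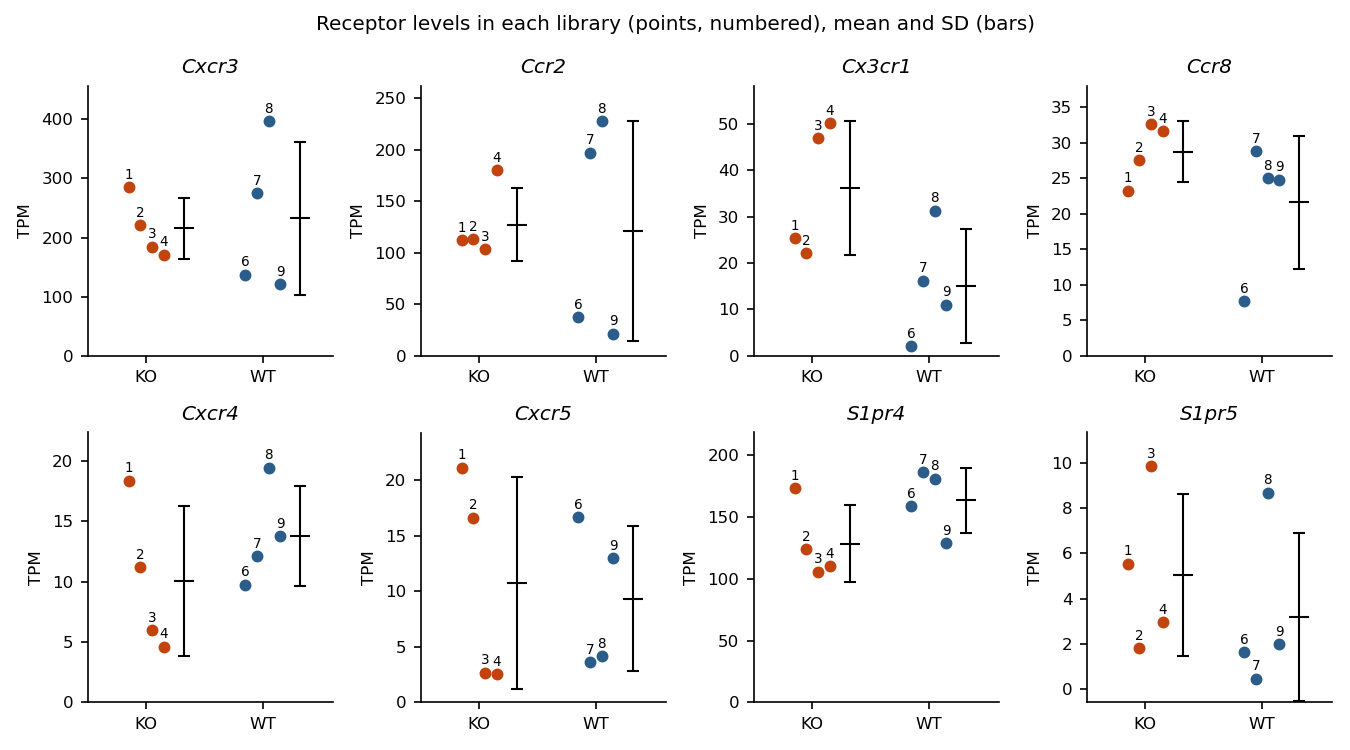
TPM of the 8 receptor genes in each library. Points are libraries numbered as in the labels (KO in red, WT in blue), the bar beside them is the mean ± SD (n = 4), and each panel has its own linear axis. KO and WT values overlap in every panel, and WT values of Ccr2 run from 21.6 to 227 TPM.

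The comparison of KO with WT cells asks whether loss of Pglyrp1 goes with another set of guidance receptors on tumour CD8+ T cells. None of the 8 receptors passed the threshold. With limma and Benjamini-Hochberg adjustment at 0.05 over all 10732 genes tested, 0 of 8 passed, where 0.0280% of all genes did, 0.0186% in the higher and 0.00932% in the lower direction. Before adjustment, 1 of 8 had p under 0.05, namely Cx3cr1, which was higher in KO, where 9.08% of all genes tested reached that level, 6.01% higher and 3.07% lower in KO. Groups did not overlap for 0 of 8, as they did for 5.02% of all genes. The difference was positive for 5 receptors and negative for 3, with a median of 0.28 on the log2 scale beside 0.04 over all genes tested. Intervals were wide for most receptors, so moderate differences in either direction were not detectable with 4 mice a group. The narrowest 95% interval was that of S1pr4, -0.79 to 0.06, and the widest that of Cxcr5, -1.65 to 1.55.

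**Figure D2:**
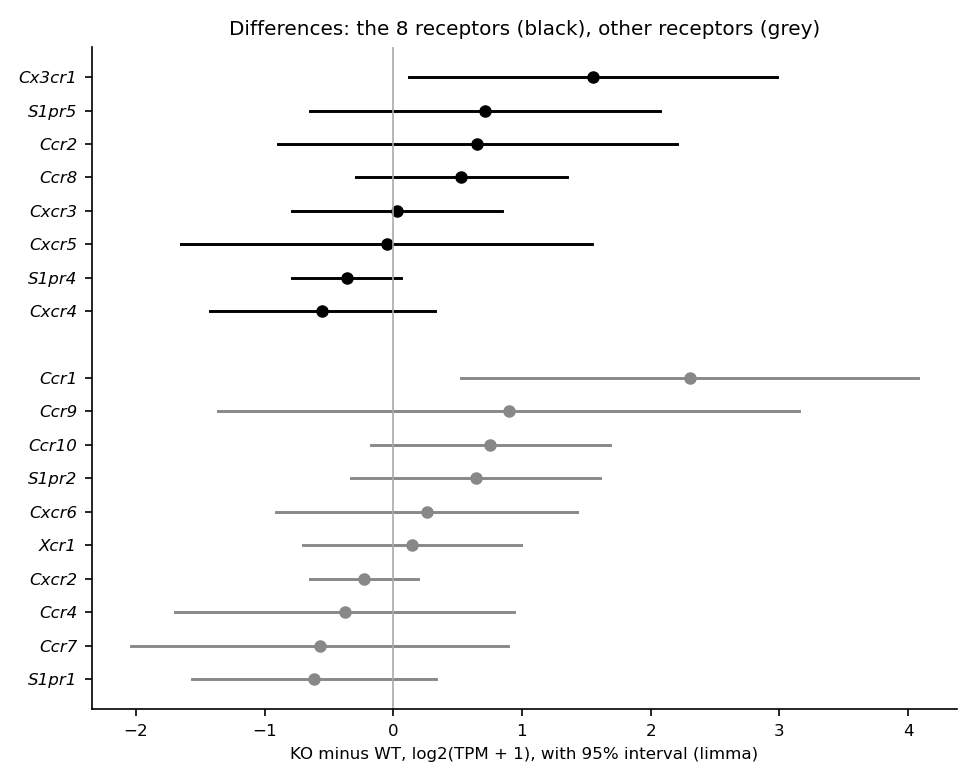
KO minus WT difference in log2(TPM + 1) with its 95% interval from limma, for the 8 receptors (black) and other chemokine and S1P receptors that were tested (grey). Among the black intervals that of Cx3cr1 alone lies above 0, from 0.12 to 2.98, and its adjusted p was 0.527.

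Cxcr3 stood at 286, 220.4, 185 and 171 TPM across KO 1 to KO 4, against 137, 275, 397 and 121 TPM across WT 6 to WT 9. The KO values lay inside the WT range, whose ends were set by WT 8 and WT 9. The difference was 0.03 on the log2 scale (95% interval -0.78 to 0.85, limma adjusted p = 0.990). Its direction depended on single libraries, and it was 0.28 without KO 3 and KO 4, -0.64 without WT 6 and WT 9, and -0.40 without all 4. The genes most like Cxcr3 across the 8 libraries were Lcp2 (Pearson r = 0.982), which encodes the T cell adaptor SLP-76, and Psmd4 (r = 0.957), a proteasome subunit. These and the correlations below describe 8 libraries that share group structure and cell makeup, and they are the highest of 7667 candidates.

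Ccr2 stood at 112, 113, 103 and 180.1 TPM across KO 1 to KO 4, against 37.8, 197, 227 and 21.6 TPM across WT 6 to WT 9. The KO libraries lay close together, with the highest 1.75 times the lowest, while the highest WT library was 10.5 times the lowest. WT 6 and WT 9 lay below every KO library, and WT 7 and WT 8 lay above every KO library. The group means were thus nearly equal and the log2 difference was 0.65 (95% interval -0.90 to 2.21, limma adjusted p = 0.803). It was -0.77 without WT 6 and WT 9 (adjusted p = 0.455) and -0.90 without KO 3 and KO 4 as well (adjusted p = 0.142). It was 0.05 without WT 9 alone. The negative values came after leaving out WT 6 and WT 9, the lowest WT libraries. Their sign thus follows from that choice. WT 6 and WT 9 were also the libraries with the highest naive and memory marker sums, whose part in the result was not tested. Monocytes express Ccr2 too, and the part of monocyte RNA in its values was not tested.

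Ccr2 lies on chromosome 9 (124101950 to 124113557 in mm10, plus strand), in a cluster that also holds Ccr1, Ccr3, Ccr9, Cxcr6 and Xcr1, at most 318 kb away. Of the distinct 38-base words in annotated Ccr2 transcripts, the read length used, 2.62% also occur in transcripts of other genes, so a small part of its reads could be assigned elsewhere. Kcnk5, a potassium channel gene, was among the genes most like Ccr2 across the 8 libraries (r = 0.982). It ran from 14.7 to 25.7 TPM in KO libraries, against 5.11 to 36.1 TPM across WT libraries, and was likewise lowest in WT 6 and WT 9.

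Cx3cr1 stood at 25.3, 22.1, 47.0 and 50.1 TPM across KO 1 to KO 4, against 2.03, 16.2, 31.3 and 11.01 TPM across WT 6 to WT 9. Groups overlapped, because WT 8 exceeded KO 1 and KO 2. It averaged 36.1 ± 14.5 TPM in KO and 15.1 ± 12.2 TPM in WT cells (SD, n = 4 each), a log2 difference of 1.55 (SE 0.64, limma unadjusted p = 0.0364, adjusted p = 0.527). The two-sided exact permutation p was 0.0857. Scaling the libraries to the T cell identity markers gave 1.68. The difference was 0.89 without WT 6, 1.05 without KO 3 and KO 4, 0.57 without WT 6 and WT 9, and 0.06 without all 4. KO 3 and KO 4 were the highest KO libraries and WT 6 and WT 9 the lowest WT libraries. The smaller values thus follow from that choice and decide nothing about genotype. The KO libraries with the most Cx3cr1, KO 3 and KO 4, also had the most monocyte and macrophage RNA (16 of 16 markers above 0 in both, against 11 and 14 in KO 1 and KO 2 and 6 to 15 in WT libraries), and its part in the result was not tested. Csf1r stood at 6.93, 0.302, 38.9 and 109 TPM across the KO libraries, against 0, 0.450, 0 and 5.51 TPM across the WT ones. Fcer1g, another marker of the list, was at 65.9 to 1314 TPM in KO and 7.32 to 41.3 TPM in WT libraries, and Cd68 at 13.0 to 165 TPM in KO and 5.40 to 36.1 TPM in WT libraries, highest in WT 8 among the WT libraries. The genes most like Cx3cr1 were Tmed5 (r = 0.983), a trafficking protein gene, and Nrp1 (r = 0.981), which encodes the semaphorin co-receptor neuropilin-1. Nrp1 was at 17.3 to 51.8 TPM in KO and 2.84 to 21.2 TPM in WT libraries, with KO 4 highest and WT 6 lowest. The annotated Cx3cr1 span of 168 kb overlaps genes on both strands. Of the 38-base words in its transcripts, 2.02% also occur in transcripts of other genes, so some reads could be assigned elsewhere.

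Ccr8 stood at 23.2, 27.5, 32.6 and 31.6 TPM across KO 1 to KO 4, against 7.72, 28.8, 25.003 and 24.8 TPM across WT 6 to WT 9. WT 6 was low and the other 7 libraries lay between 23.2 and 32.6 TPM. The log2 difference was 0.53 (95% interval -0.29 to 1.35, limma adjusted p = 0.681), 0.12 without WT 6, 0.083 without WT 6 and WT 9, and -0.083 without KO 3 and KO 4 as well. Summed over 8 CD4 and regulatory T cell markers, KO libraries had 352 to 515 TPM and WT libraries 172 to 399 TPM, with WT 6 lowest. Tnfrsf18 alone gave most of each sum, at 283 to 467 TPM in KO and 134 to 343 TPM in WT libraries. All 8 markers were above 0 in all 8 libraries. Foxp3, the factor that defines regulatory T cells, was at 2.52 to 7.56 TPM in KO and 2.03 to 5.51 TPM in WT libraries, highest in KO 2. Cd4 was at 4.50 to 66.7 TPM in KO and 0.393 to 2.25 TPM in WT libraries, highest in KO 3. The part of these markers in the Ccr8 values was not tested. Ccr8 (chromosome 9, 120092114 to 120094906, plus strand) lies 22.2 kb from Cx3cr1, and the pair had the highest Pearson correlation among the 8 receptors (r = 0.899). By rank it was not the highest, with a Spearman rho of 0.690 against 0.762 for Ccr2 and Cxcr3. WT 6 was the lowest library for both Ccr8 and Cx3cr1. The genes most like Ccr8, Cenpk and Grpel1 (r = 0.980 each), rested on that library too, with r falling to 0.727 and 0.668 in the leave-one-out series.

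Cxcr4 stood at 18.4, 11.2, 5.98 and 4.63 TPM across KO 1 to KO 4, against 9.75, 12.1, 19.4 and 13.8 TPM across WT 6 to WT 9. KO 3 and KO 4 lay below every WT library, while KO 1 and KO 2 lay inside the WT range. The log2 difference was -0.55 (95% interval -1.43 to 0.32, limma adjusted p = 0.688), 0.10 without KO 3 and KO 4, and -0.094 without WT 6 and WT 9 as well. The share of monocyte and macrophage RNA was highest in those 2 libraries, and its part was not tested. Gimap8 (r = 0.975), a lymphocyte GTPase gene, and Pde3b (r = 0.970), a cyclic nucleotide phosphodiesterase gene, were most like it.

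Cxcr5 split both groups into high and low libraries. It stood at 21.1, 16.6, 2.69 and 2.52 TPM across KO 1 to KO 4, against 16.7, 3.60, 4.17 and 13.0 TPM across WT 6 to WT 9. The 4 high libraries (KO 1, KO 2, WT 6 and WT 9) ran from 13.0 to 21.1 TPM and the 4 low ones from 2.52 to 4.17 TPM, so the split ran across genotype. The log2 difference between KO and WT was -0.05 (95% interval -1.65 to 1.55, limma adjusted p = 0.992). It was 1.17 without KO 3 and KO 4, 0.79 without WT 6 and WT 9, and 2.02 without all 4 (limma adjusted p = 0.113). Those exclusions left out the low KO libraries, the high WT libraries or both. Their values follow from that split and decide nothing about genotype. B cells express Cxcr5, and all 8 B cell markers were above 0 in WT 6 and WT 9, where they summed to 50.4 and 58.6 TPM. The sums were 21.8, 6.05, 13.8 and 6.31 TPM across KO 1 to KO 4, with 5, 1, 6 and 2 markers above 0, and 7.20 and 8.33 TPM in WT 7 and WT 8. The part of B cell RNA in the Cxcr5 values was not tested. The gene overlaps Bcl9l, which is on the other strand. Of the 38-base words in annotated Cxcr5 transcripts, 2.22% also occur in Bcl9l, so reads there could be assigned to either gene. The genes most like Cxcr5 were the ribosomal protein genes Rpl36 (r = 0.930) and Rpl22l1 (r = 0.924).

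**Figure D3:**
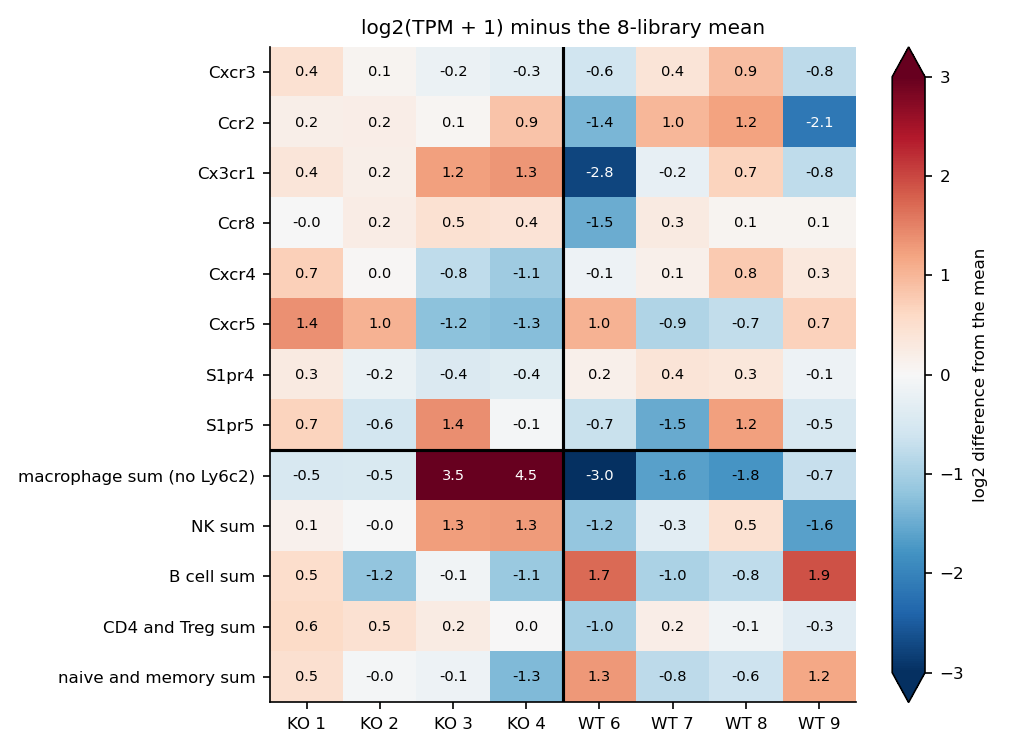
Deviation of log2(TPM + 1) from the mean of the 8 libraries, for the 8 receptors (upper rows) and for summed markers of other cell types and states (lower rows). Colour stops at 3 in either direction and the printed values go on. Ccr2 is lowest in WT 6 and WT 9, Cxcr5 is highest in KO 1, KO 2 and WT 6, and the macrophage sum is highest in KO 3 and KO 4.

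S1pr4 was the steadiest of the 8 receptors in WT libraries. It stood at 173, 124, 106 and 110.3 TPM across KO 1 to KO 4, against 158, 186, 181 and 129 TPM across WT 6 to WT 9. KO 2, KO 3 and KO 4 lay below every WT library and KO 1 lay inside the WT range. The log2 difference was -0.36 (SE 0.19, limma adjusted p = 0.597, two-sided exact permutation p = 0.114). It was negative in all 20 other settings tried, from -0.54 to -0.14, and the unadjusted p was under 0.05 in 4 of them. It was -0.14 without KO 3 and KO 4 (limma unadjusted p = 0.538). Rabep2 (r = 0.974), an endosome protein gene, and Stim1 (r = 0.970), the calcium sensor of store-operated calcium entry, were most like S1pr4.

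S1pr5 stood at 5.54, 1.81, 9.87 and 2.95 TPM across KO 1 to KO 4, against 1.63, 0.450, 8.68 and 1.97 TPM across WT 6 to WT 9. KO 3 and WT 8 were the highest, and WT 7 held a single unit of the deposited score, so its value carries little precision. The log2 difference was 0.71 (95% interval -0.65 to 2.08, limma adjusted p = 0.746), and it was 1.24 without WT 8, 0.41 without KO 3 and KO 4, and 0.20 without KO 3, KO 4, WT 6 and WT 9. Summed natural killer cell markers, which include receptors that CD8 T cells can carry, were 787 to 1933 TPM in KO and 254 to 1088 TPM in WT libraries. KO 3 and KO 4 had the highest sums in KO, and WT 8 the highest in WT libraries. Tyrobp, an adaptor gene that myeloid cells also use, gave most of the KO 3 and KO 4 sums, at 1280 and 1291 TPM. In KO 1 and KO 2 Tyrobp was at 83.2 and 84.9 TPM, and in WT libraries at 23.3 to 40.6 TPM. Gzma, a granzyme that CD8 T cells also make, gave most of the sum in every other library. Gzma was at 502 to 717 TPM in KO and 187 to 1031 TPM in WT libraries. Ncr1, a defining natural killer cell receptor, was at 0.907 to 7.996 TPM in KO libraries and at most 1.18 TPM in WT libraries. The part of these markers in the S1pr5 values was not tested. Riok3 (r = 0.942) and Ddx24 (r = 0.934) were most like S1pr5.

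Among all S1P receptor transcripts, S1pr4 gave 51.0% to 58.9% of the summed TPM in KO libraries, against 41.4% to 69.5% across WT libraries. S1pr1, the lymph node exit receptor, gave 22.9% to 37.6% in KO libraries, against 19.1% to 54.1% across WT libraries, and exceeded S1pr4 in WT 6 and WT 9 alone. S1pr1 averaged 76.0 ± 34.9 TPM in KO and 121 ± 57.4 TPM in WT cells (SD, n = 4 each, limma adjusted p = 0.681). S1pr2, a receptor that couples to Gα12/13 proteins and holds cells in place, averaged 27.1 ± 4.44 TPM in KO and 20.03 ± 12.5 TPM in WT cells (adjusted p = 0.673), and S1pr3 was below 1 TPM in every library. Of 10 genes for the other S1P receptors and for S1P supply, 5 were tested and 0 passed in either direction. The tested genes of smallest p were Sgpl1, which encodes the S1P lyase, with 46.2 ± 16.3 TPM in KO and 31.8 ± 11.1 TPM in WT cells (limma adjusted p = 0.639), and Sphk2, a sphingosine kinase gene, with 11.4 to 14.7 TPM in KO and 9.90 to 11.8 TPM in WT libraries (adjusted p = 0.645).

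The 6 chemokine receptors described here made up 23.7% to 28.2% of the summed TPM of 18 chemokine receptors in KO libraries, against 15.3% to 33.0% across WT libraries. Cxcr3 alone gave 13.0 ± 2.91% in KO and 12.5 ± 4.11% in WT libraries (SD, n = 4 each), and Ccr2 gave 7.66 ± 1.87% and 5.84 ± 4.26%. Most of the remainder was Cxcr6, a receptor of tissue-resident and tumour T cells, with 36.1% to 48.7% in KO and 21.4% to 59.8% in WT libraries, and Ccr7, the lymph node homing receptor. Ccr7 took 55.6% and 54.5% in WT 6 and WT 9, against 7.75% and 6.30% in WT 7 and WT 8 and 4.87% to 25.7% in KO libraries. These receptors were picked after their values were seen. Of the 12 other chemokine receptors, 9 were tested and 0 passed, with 6 positive and 3 negative and a median log2 difference of 0.26. Ccr1, best known from myeloid cells, had the smallest p, with 9.36, 9.67, 48.2 and 79.1 TPM in KO libraries and 2.44, 13.9, 5.56 and 1.18 TPM in WT libraries (log2 difference 2.30, limma adjusted p = 0.473). Its 2 high libraries were KO 3 and KO 4. The Ccr1 difference was 1.014 without them, 1.38 without WT 6 and WT 9, and 0.087 without all 4 (limma unadjusted p = 0.846). WT 6 and WT 9 were the lowest WT libraries for Ccr1, so these smaller values follow from the libraries left out and decide nothing about genotype. Ccr10 was next (log2 difference 0.76, adjusted p = 0.614), at 2.42 to 7.62 TPM in KO and 1.04 to 4.88 TPM in WT libraries. Of 5 atypical receptors, which bind chemokines without the usual signalling, Ccrl2 alone was tested (29.8 ± 14.0 TPM in KO, 16.8 ± 10.7 TPM in WT, limma adjusted p = 0.631).

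**Figure D4:**
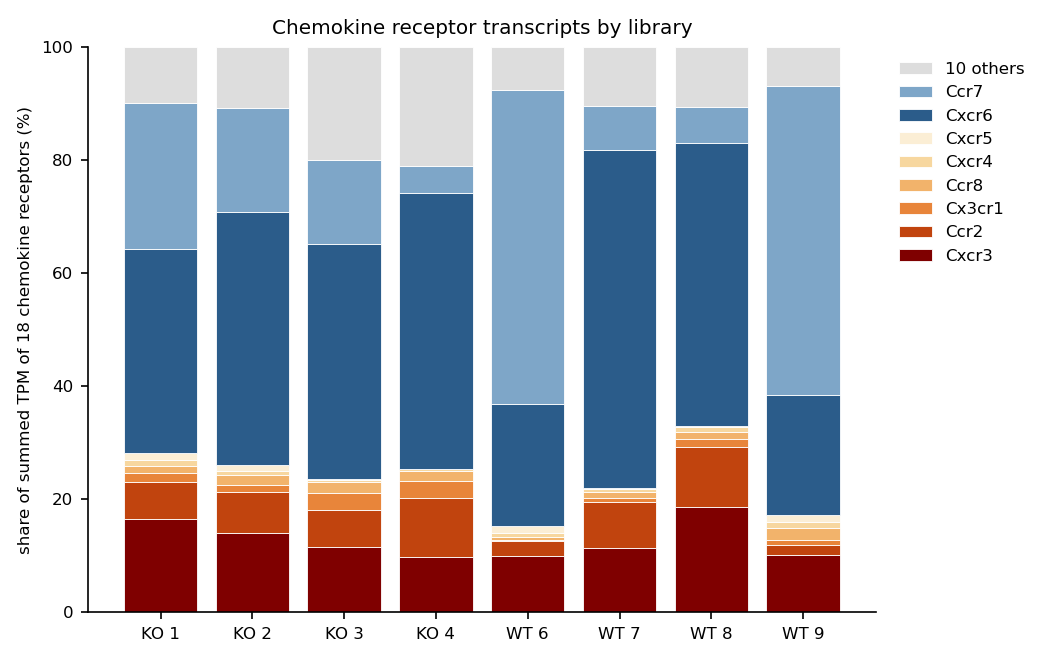
Share of the summed TPM of 18 chemokine receptor genes in each library, with KO libraries at the left and WT libraries at the right. The 6 receptors described here (warm colours) take 15.3% in WT 6 and 33.0% in WT 8, and Ccr7 takes 55.6% and 54.5% in WT 6 and WT 9.

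Ligand transcripts for these receptors differed widely in level between libraries. Of 11 ligand genes, 5 were tested, all 5 had a positive difference (median 1.86 on the log2 scale), and 0 passed over all genes. At an unadjusted p under 0.05 there were 3 of 5, all higher in KO, beside 6.01% of all genes tested. Ccl2, a CCR2 ligand, stood at 23.2, 4.84, 118 and 363 TPM across the KO libraries, against 0, 2.70, 0 and 9.05 TPM across the WT ones (limma adjusted p = 0.398). Ccl7, another CCR2 ligand, was at 25.6, 0, 58.6 and 166 TPM in KO libraries, and in WT libraries at 2.70 TPM in WT 7 and listed at 0 in the others (adjusted p = 0.472). Without KO 3 and KO 4 the log2 difference was 2.27 for Ccl2 and 1.90 for Ccl7, against 4.33 and 4.03 over all libraries. The highest values of both were in KO 3 and KO 4, the libraries with high monocyte and macrophage markers, whose part in the result was not tested. Ccl12, a ligand gene of the list that did not pass the filter, was high in KO 1 as well. It was at 101, 0, 110 and 97.2 TPM across KO 1 to KO 4, and listed at 0 in every WT library. Ccl1, a CCR8 ligand, stood at 145, 18.1, 38.9 and 2.10 TPM across the KO libraries, against 0, 66.6, 15.6 and 147 TPM across the WT ones, and the groups overlapped. Cxcl10, a CXCR3 ligand, stood at 26.7, 11.8, 147 and 98.1 TPM across the KO libraries, against 10.2, 13.5, 21.9 and 8.65 TPM across the WT ones. Cxcl12, Cxcl13 and Cx3cl1, the ligands of CXCR4, CXCR5 and CX3CR1, stayed below 1 TPM in all 8 libraries.

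Genes that act downstream of these receptors also gave 0 calls. Of 13 G protein and receptor desensitisation genes, 11 were tested, 8 positive and 3 negative, with a median log2 difference of 0.13. Grk6, a kinase that desensitises chemokine receptors, stood at 25.6, 27.5, 21.8 and 26.9 TPM across the KO libraries, against 30.9, 29.2, 33.3 and 33.8 TPM across the WT ones. The groups did not overlap, as for 2.40% of all genes tested in that direction, and the limma adjusted p was 0.557. Arrb2, which encodes β-arrestin 2, averaged 36.5 ± 7.91 TPM in KO and 48.4 ± 11.8 TPM in WT cells (adjusted p = 0.624). All 20 migration genes were tested, 6 positive and 14 negative, with 1 higher in KO and 2 lower at p under 0.05 before adjustment, beside 6.01% and 3.07% of all genes tested. Arhgef1, the GTPase exchange factor that Gα12/13-coupled receptors such as S1PR2 engage, stood at 64.1, 55.0, 74.5 and 68.2 TPM across the KO libraries, against 136, 138, 136 and 86.5 TPM across the WT ones (log2 difference -0.89, limma adjusted p = 0.300). Rhoa, the GTPase that Arhgef1 activates, averaged 344 ± 35.0 TPM in KO and 269 ± 38.2 TPM in WT cells (adjusted p = 0.515).

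All 16 transcription factors of a list of known regulators of T cell trafficking and state were tested, 12 positive and 4 negative, and 0 passed. At an unadjusted limma p under 0.05 there were 3 of 16, all higher in KO, beside 6.01% of all genes tested. Stat3 averaged 233 ± 29.7 TPM in KO and 137 ± 38.0 TPM in WT cells, and Irf4 25.2 ± 5.34 and 9.72 ± 6.22 TPM (SD, n = 4 each, limma adjusted p = 0.395 each). Tbx21, which encodes T-bet, a factor known to induce Cxcr3 and S1pr5, stood at 28.1, 123, 168 and 175 TPM across the KO libraries, against 67.5, 217, 182 and 14.2 TPM across the WT ones. Tbx21 was lowest in WT 9, KO 1 and WT 6 and highest in WT 7, and its part in the receptor levels was not tested. Tbx21 was added after its values were seen.

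The lists of cell type and state markers, whose summed levels are given above beside the receptors, held 0 genes past the adjusted threshold. Of 13 monocyte and macrophage markers tested, all 13 were positive (median log2 difference 2.47) and 9 were higher in KO at an unadjusted p under 0.05, beside 6.01% of all genes tested, with Fcer1g (3.72) and Cybb (3.05) of smallest p. The 10 natural killer cell markers were positive too (median 1.23), 6 of them at an unadjusted p under 0.05, beside the same 6.01%, with Tyrobp (3.39) and Klra7 (1.41) of smallest p. Fcer1g and Tyrobp encode signalling adaptors that myeloid cells also use. Of 8 CD4 and regulatory T cell markers, 7 were positive and 1 negative, with Cd4 (2.76) and Tnfrsf18 (0.63) of smallest p. Without KO 3 and KO 4 the log2 difference was 1.72 for Fcer1g, 1.35 for Cybb, 1.43 for Tyrobp, 1.61 for Klra7 and 1.48 for Cd4. Of 9 T cell identity markers, 2 were positive and 7 negative, with Cd8b1 (-0.38), a CD8 coreceptor chain, and Lck (-0.31), a kinase of T cell receptor signalling, of smallest p. Of 10 naive and memory markers, 1 was positive and 9 negative, with Il7r (-0.46) and Lef1 (-0.97) of smallest p. Among 8 B cell markers, only Cd79b (-0.90) and Cd79a (-0.62) were tested. Adjusted p-values of the genes named here ran from 0.395 for Fcer1g, Cybb, Cd4, Tyrobp and Klra7 to 0.874 for Cd79a (limma).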

How the data were processed

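The deposited table holds a score per gene and library that the authors named a TPM-normalized count: whole numbers whose sums differ between libraries, so neither TPM nor raw counts. RSEM 1.3.3 and mm10 are named per the submitters' processing notes, and sequencing was paired-end with 38 bases per read, per the labels' protocols. For the aligner, the annotation and the scaling step: not given in the sources used here. Sequencing depth is unknown because no read numbers could be used, and counting error is therefore not shown. One deposited unit was worth 0.299 to 0.450 TPM once every library had been brought to a total of 1000000.

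The test covered 10732 genes that reached 1 TPM in 4 or more libraries and was run on log2(TPM + 1) with limma 3.58.1 in R 4.3.3 (mean trend, group as the only term, Benjamini-Hochberg adjustment). Differences are KO minus WT and understate changes of low genes. TPM had been assumed in planning, and the same test was used on the rescaled values. With fewer libraries the filter asked for as many libraries as the smaller group held. Exact permutation tests were two-sided over 70 assignments, with a smallest p of 0.0286. The fit was tested on simulated data. Alternatives changed the pseudocount, filter, scaling or variance model, or left libraries out. Each mouse gave 1 library, per the series' design text.

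The receptors, lists and library exclusions were chosen with earlier results of these data known. Of 151 entries in 13 lists, 148 matched, 10 by another symbol. Trac, Trbc1 and Trbc2 were not matched. Named genes are the 8 receptors, up to 4 passing genes of each list or else its 2 of smallest p, and the 2 genes most correlated with each receptor among those with a mean of at least 5 TPM. Others were named after their values were seen: Csf1r, Foxp3, Ncr1, Cd68, Gzma, Ccl1, Ccl12, Cxcr6, Ccr7, S1pr1, S1pr2, S1pr3, Tbx21, Cxcl10, Cxcl12, Cxcl13 and Cx3cl1. Python 3.11.15, pandas 2.3.3 and scipy 1.17.1 handled tables. Coordinates are from GENCODE M21 on mm10. Results for some genes are not reported here.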

Additional observations from a re-analysis of the deposited data

Results flagged for a closer look

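A single library lay far from the other 3 of its group in 4 of 99 groups examined, where chance would mark about 1 in 20, or 4.95. Ccr2 was at 180.1 TPM in KO 4, against 103 to 113 TPM in the other KO libraries. Ccl7 was at 2.70 TPM in WT 7 and listed at 0 in the other WT libraries. Arhgef1 was at 86.5 TPM in WT 9, against 136 to 138 TPM in the others. Cd79b was at 16.3 TPM in KO 1, against 5.89 to 6.28 TPM.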

How the results depend on the processing

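No paired analysis was possible because KO libraries are numbered 1 to 4 and WT libraries 6 to 9, so no number is shared. Scaling to T cell identity markers was added after the data were seen and moved the median over all genes from 0.04 to 0.15. In all 20 other settings 0 of the 8 receptors passed in either direction. Of 159 receptor values, 139 kept their sign, and Cx3cr1, S1pr4 and S1pr5 kept theirs in every setting that tested them (S1pr5 was not tested with a filter of 5 TPM). With 1 library left out, the log2 difference ran from 0.05 to 1.16 for Ccr2, 0.12 to 0.71 for Ccr8, -0.22 to 0.34 for Cxcr3, -0.88 to -0.28 for Cxcr4, -0.52 to 0.37 for Cxcr5, 0.89 to 2.03 for Cx3cr1, -0.51 to -0.28 for S1pr4 and 0.33 to 1.24 for S1pr5. Single libraries turned the sign for Cxcr3 (KO 1, WT 6 or WT 9 left out) and Cxcr5 (KO 3, KO 4, WT 6 or WT 9 left out). Signs also turned for Cxcr3 with median-ratio scaling (-0.014), quantile normalization (-0.070), without WT 6 and WT 9 (-0.64) and without KO 3, KO 4, WT 6 and WT 9 (-0.40). They turned for Cxcr5 with a pseudocount of 5 (0.023), with T cell marker scaling (0.029), without KO 3 and KO 4 (1.17), without WT 6 and WT 9 (0.79) and without all 4 (2.02). They also turned for Ccr2 without WT 6 and WT 9 (-0.77) and without all 4 (-0.90), Ccr8 without all 4 (-0.083) and Cxcr4 without KO 3 and KO 4 (0.10). The median difference of the 8 was -0.23 without WT 6 and WT 9. Without all 4 libraries Ccrl2 (-0.53), Sgpl1 (-0.34), Cd79b (0.36) and Lef1 (0.52) turned, without WT 6 and WT 9 Cd79b (0.043) and Cd79a (1.09), and without WT 9 Cd79a (leave-one-out range -1.19 to 0.049). The cause was not tested. The unknown depth limits S1pr5 most, since its lowest value is a single deposited unit.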
